A study of Homo sapiens with 12 samples.

Results

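The collagen genes were taken as every protein-coding gene of RefSeq on GRCh38 whose symbol has the form COL, a number, A and a number, which gave 44 of the 19974 protein-coding genes on chromosomes 1–22 and X. Each gene was examined over its body and 10 kb on each side. Collagens are secreted proteins built of chains that wind around each other into a rope-like helix. Fibrillar collagens bear the load of bone, tendon and cartilage, fibril-associated collagens (FACITs) decorate those fibrils, and the network-forming type IV collagens make up basement membranes. Bone matrix is mostly type I collagen, made from COL1A1 and COL1A2, and the related factor SOX9 is known to switch on the cartilage collagens.

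Chromatin accessibility was measured by ATAC-seq, in which a transposase cuts and tags open DNA, in U2OS, a human osteosarcoma (bone tumour) cell line. Lines carried a Tet-on transgene, switched on by doxycycline, for Flag-tagged FOXA2 of full length (labelled FOXA2FL), FOXA2 without its CTD (FOXA2dCTD), full-length SOX2 (SOX2FL) or SOX2 fused to the CTD of FOXA2 (SOX2FLFOXA2CTD). These cells received 500 ng/ml doxycycline for 4 days. FOXA2 is a forkhead factor of endoderm and liver and SOX2 a factor of stem cells. Both are called pioneer factors because they can bind closed chromatin. Wild-type cells (WT) were compared with both FOXA2 constructs, and samples labelled WT_SOX2_CellLine with both SOX2 constructs. Whether this second wild type is untransduced U2OS or an uninduced SOX2 line is not clear from its label, and the labels also leave unclear whether wild-type cells received doxycycline. All 6 groups had 2 samples, labelled as biological replicates. The question of the design is which sites open with each factor and what the CTD adds.

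The FOXA2 set had 1 peak list per library and the SOX2 set 1 list per group, 9 lists in all. The lists held 19862 and 25088 peaks (WT replicates 1 and 2), 161136 and 57946 (FOXA2FL), 78820 and 146854 (FOXA2dCTD), then 48142 (WT_SOX2_CellLine), 65628 (SOX2FL) and 75544 (SOX2FLFOXA2CTD). The files hold no reads, so that depth is unknown. The lists also end at different thresholds: the lowest −log10 p was 3.44 and 5.43 in WT, 2.01 and 5.22 with FOXA2FL and 2.01 and 2.01 with FOXA2dCTD. List length moves with the groups of the FOXA2 set: both wild-type lists were shorter than all 4 construct lists. The lists of WT replicate 2 and FOXA2FL replicate 2 held no mitochondrial peak and the other 4 lists of that set 2 each, and this split of the files is used below as a batch. The lists without them are those that end at 5.43 and 5.22, and no FOXA2dCTD list lacks them. The cell type cannot be checked by RNA here. Peaks near marker genes did not separate cell types. Of 10 osteoblast and mesenchymal genes, 7 and 3 had one in WT replicates 1 and 2 and 7 to 10 in the other lists, beside 52.7% to 93.5% of all genes. In WT replicates 1 and 2, 3 and 1 of 3 haematopoietic, 3 and 2 of 4 epithelial and 0 and 0 of 3 hepatocyte genes had one. These peaks lay anywhere in the gene body or within 10 kb and not only at starts.

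In all 9 lists, 5 collagen genes had a peak within 1 kb of a start or gene end. At an annotated start these were COL12A1, which binds to type I fibrils, COL21A1, another FACIT, and COL13A1, a transmembrane collagen of the neuromuscular junction. At a gene end, for genes without an annotated start here, they were COL5A2, which sets the diameter of type I fibrils, and COL14A1, a FACIT. COL1A1 had one in 8 lists. In both sets, the merged region at this end of COL5A2 also covered a start of another gene, WDR75, so that the site cannot be assigned to COL5A2 alone. The bases just before the start are shown for the first 3, from RefSeq's promoter set (GRCh38.p14), because they carry these shared sites. They are followed by the promoter of COL6A2, called with FOXA2FL and not in wild type, and by the gaps between the back-to-back starts of COL4A1 and COL4A2 and of COL4A3 and COL4A4. All are written 5′ to 3′ on the strand of the named gene. Capitals mark letters that match ACAATG or ACAAAG (a SOX core), TATAAA (the TATA box) or CCAAT (the CCAAT box) on either strand. The COL21A1 sequence lies at chr6:56091663-56091912 on the minus strand, before an internal start of that gene. COL12A1 is given at chr6:75206054-75206303 on the minus strand, COL13A1 at chr10:69801656-69801905 on the plus strand and COL6A2 at chr21:46097862-46098111 on the plus strand. The gap of COL4A1 covers chr13:110307158-110307283 on the minus strand and that of COL4A3 chr2:227164489-227164623 on the plus strand.
COL21A1: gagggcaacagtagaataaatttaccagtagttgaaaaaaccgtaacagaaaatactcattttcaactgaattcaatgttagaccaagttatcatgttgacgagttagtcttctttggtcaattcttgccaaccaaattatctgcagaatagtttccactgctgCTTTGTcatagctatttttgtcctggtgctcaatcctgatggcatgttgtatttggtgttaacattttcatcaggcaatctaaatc
COL12A1: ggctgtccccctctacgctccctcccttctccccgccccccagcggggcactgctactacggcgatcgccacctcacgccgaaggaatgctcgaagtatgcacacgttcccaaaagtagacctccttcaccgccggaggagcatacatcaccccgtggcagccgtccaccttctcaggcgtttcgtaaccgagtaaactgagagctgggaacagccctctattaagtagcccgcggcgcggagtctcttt
COL13A1: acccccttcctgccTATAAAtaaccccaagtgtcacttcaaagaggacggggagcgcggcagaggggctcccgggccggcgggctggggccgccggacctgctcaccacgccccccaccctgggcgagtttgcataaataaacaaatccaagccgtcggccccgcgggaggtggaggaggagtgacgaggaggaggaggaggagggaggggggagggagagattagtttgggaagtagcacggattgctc
COL6A2: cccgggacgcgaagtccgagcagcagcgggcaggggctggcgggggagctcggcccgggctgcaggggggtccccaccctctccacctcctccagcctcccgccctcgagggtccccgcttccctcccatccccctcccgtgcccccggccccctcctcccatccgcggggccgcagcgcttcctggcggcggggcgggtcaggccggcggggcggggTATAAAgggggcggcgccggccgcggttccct
COL4A1 to COL4A2: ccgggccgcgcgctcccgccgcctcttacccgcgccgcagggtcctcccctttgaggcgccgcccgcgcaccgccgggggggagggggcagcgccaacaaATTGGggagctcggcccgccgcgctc
COL4A3 to COL4A4: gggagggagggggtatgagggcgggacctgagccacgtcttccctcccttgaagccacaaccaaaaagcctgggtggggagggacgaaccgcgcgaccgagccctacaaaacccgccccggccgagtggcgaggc

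The open COL21A1 start differs from the others in base content: G and C made up 36% of its 250 bases, against 61.2% for COL12A1, 64% for COL13A1 and 79.6% for COL6A2. It holds the reverse of a SOX core. COL13A1 holds TATAAA from base 15 of its 250, far from the start, and COL6A2 from base 219, nearer to the start. The COL4A1 gap, of 126 bases, holds the reverse of CCAAT. The COL12A1 window and the COL4A3 gap, of 135 bases, hold none of the letters searched, which says nothing about binding there. The 250 bases before each of the 44 annotated starts of the 32 collagen genes in the promoter set were searched on both strands, and the shares are of starts on both sides. TGTTTAC or TGTTTGC (a FOXA core) was present at 2 starts (4.55%), both of COL11A2, against 6.09% of all promoters. A SOX core was present at 6 starts (13.6%), of COL5A3, COL9A2, COL10A1, COL17A1 and COL21A1, against 21.2%. TATAAA, searched with CCAAT after the sequences had been seen, was present at 8 starts (18.2%), against 10.7%, and CCAAT at 12 (27.3%), against 32%. No printed sequence holds more than 1 match. A match is a description of the letters and not a binding site.

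Peaks were found near 25 and 23 of the 44 collagen genes in WT replicates 1 and 2, where 55.9% and 52.7% of all protein-coding genes had one. With FOXA2FL the counts were 43 and 37 (all genes 93.5% and 78.1%), and with FOXA2dCTD 39 and 43 (81.0% and 92.4%). In the SOX2 set 38 collagen genes had a peak in WT_SOX2_CellLine (80.3%), 36 with SOX2FL (83.5%) and 39 with SOX2FLFOXA2CTD (82.2%). Collagens thus lay within 8 percentage points of all genes in every list. Both wild-type lists of the FOXA2 set, the shortest, gave the lowest counts. Collagen genes are long: their windows had a median of 164.672 kb against 44.158 kb for all genes, and 26 of the 44 were at least 100 kb long. Among those 26, WT replicates 1 and 2 had a peak at 17 and 14 genes (65.4% and 53.8%), against 75.4% and 69.6% of all genes of that length. FOXA2FL replicate 2, FOXA2dCTD replicate 1, SOX2FL and the fusion had one at 24 (92.3%). All genes of that length gave 93.0%, 95.9%, 98.1% and 98.3% there, so that collagens lay below in these lists too. FOXA2FL replicate 1, FOXA2dCTD replicate 2 and WT_SOX2_CellLine had one at all 26, against 99.4%, 99.3% and 96.8%.

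With the 19862 strongest peaks of each list, the number of the shortest, the groups no longer separated: 25 and 21 collagen genes had a peak in WT (all genes 55.9% and 46.4%), 21 and 23 with FOXA2FL (50.9% and 50.5%), and 23 and 27 with FOXA2dCTD (46.9% and 51.8%). The same number gave 27 genes in WT_SOX2_CellLine (59.9%), 20 with SOX2FL (59.5%) and 21 with the fusion (49.0%). SOX2FL was thus the list in which collagens lay farthest below all genes. A merged region called in both libraries was present at 19 collagen genes in WT (all genes 40.9%), 35 with FOXA2FL (75.2%) and 33 with FOXA2dCTD (72.5%). An exact permutation test of 2 libraries against 2 cannot give a two-sided p below 0.333, so that no call rests on a test. Of the SOX2 set, 38, 36 and 39 collagen genes held a merged region called in WT_SOX2_CellLine (80.3%), SOX2FL (83.6%) and the fusion (82.2%).

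**Figure D1:**
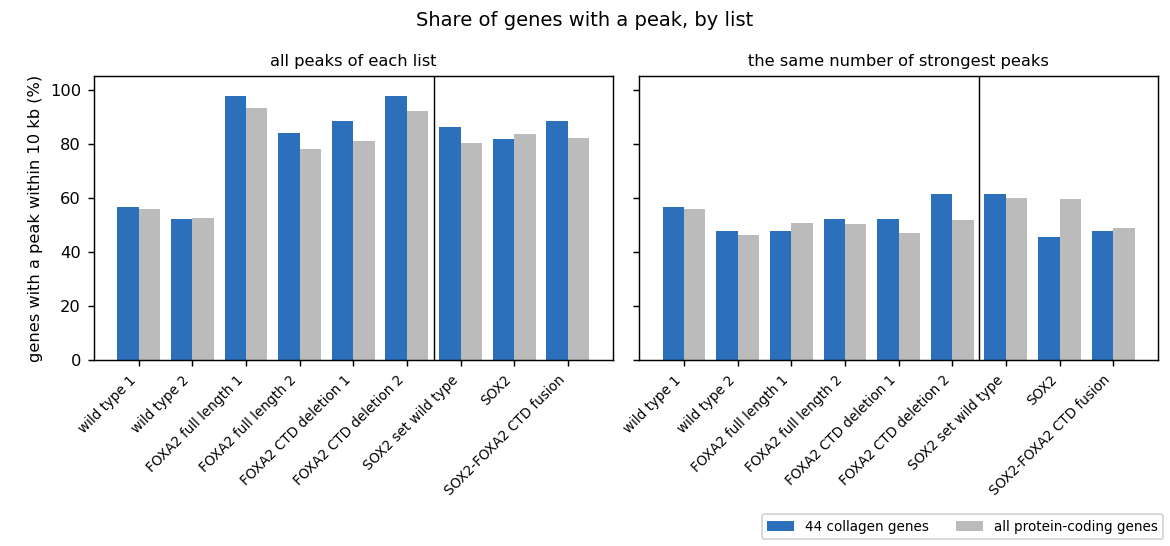
Share of genes (%, vertical axis) with a peak in the gene body or within 10 kb, for the 44 collagen genes (blue bars) and all 19974 protein-coding genes (grey bars), in each of the 9 lists. The left panel uses all peaks and the right panel the 19862 strongest peaks of each list, where the wild-type bars no longer stand apart from the others.

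The starts of collagen genes were open less often than those of other genes in all 9 lists. Of the 32 collagen genes with an annotated start, 3 and 4 had a peak within 1 kb of it in WT replicates 1 and 2, against 38.5% and 36.7% of the 15812 protein-coding genes with such a start. With FOXA2FL 14 and 8 had one (all genes 66.2% and 58.1%), and with FOXA2dCTD 6 and 15 (51.8% and 66.4%). The counts were 13 in WT_SOX2_CellLine (57.6%), 12 with SOX2FL (60.1%) and 13 with the fusion (55.1%). As shares these run from 9.38% to 46.9% of collagen genes. Which starts were open in a list says nothing of how much of the gene was transcribed.

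The plot of peaks by gene shows where the accessible sites lay. COL22A1, a FACIT of tissue junctions, held the most merged regions of the FOXA2 set, 55, followed by the fibrillar COL24A1 with 54, COL21A1 with 51, COL5A2 with 48 and COL14A1 with 45. In the SOX2 set COL21A1 led with 24, followed by COL22A1 with 23, COL5A2 with 22, COL19A1, a FACIT, with 20 and COL8A1, a short-chain collagen of vessel walls, with 19. Longer windows held more regions: Spearman's rho across the 44 genes was 0.68 in the FOXA2 set and 0.67 in the SOX2 set, as a description. Peak density in collagen windows was close to that in all gene windows, with 6.70 against 8.43 peaks per Mb in WT replicate 1, the widest gap in ratio, and 20.5 against 20.1 in WT_SOX2_CellLine, the single list in which collagens were the denser. Every collagen gene had a peak in at least 1 list. COL11A2, of cartilage fibrils, had 1 peak in FOXA2dCTD replicate 2 and none elsewhere, and COL5A3 had peaks in FOXA2FL replicate 1 and FOXA2dCTD replicate 1 alone.

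**Figure D2:**
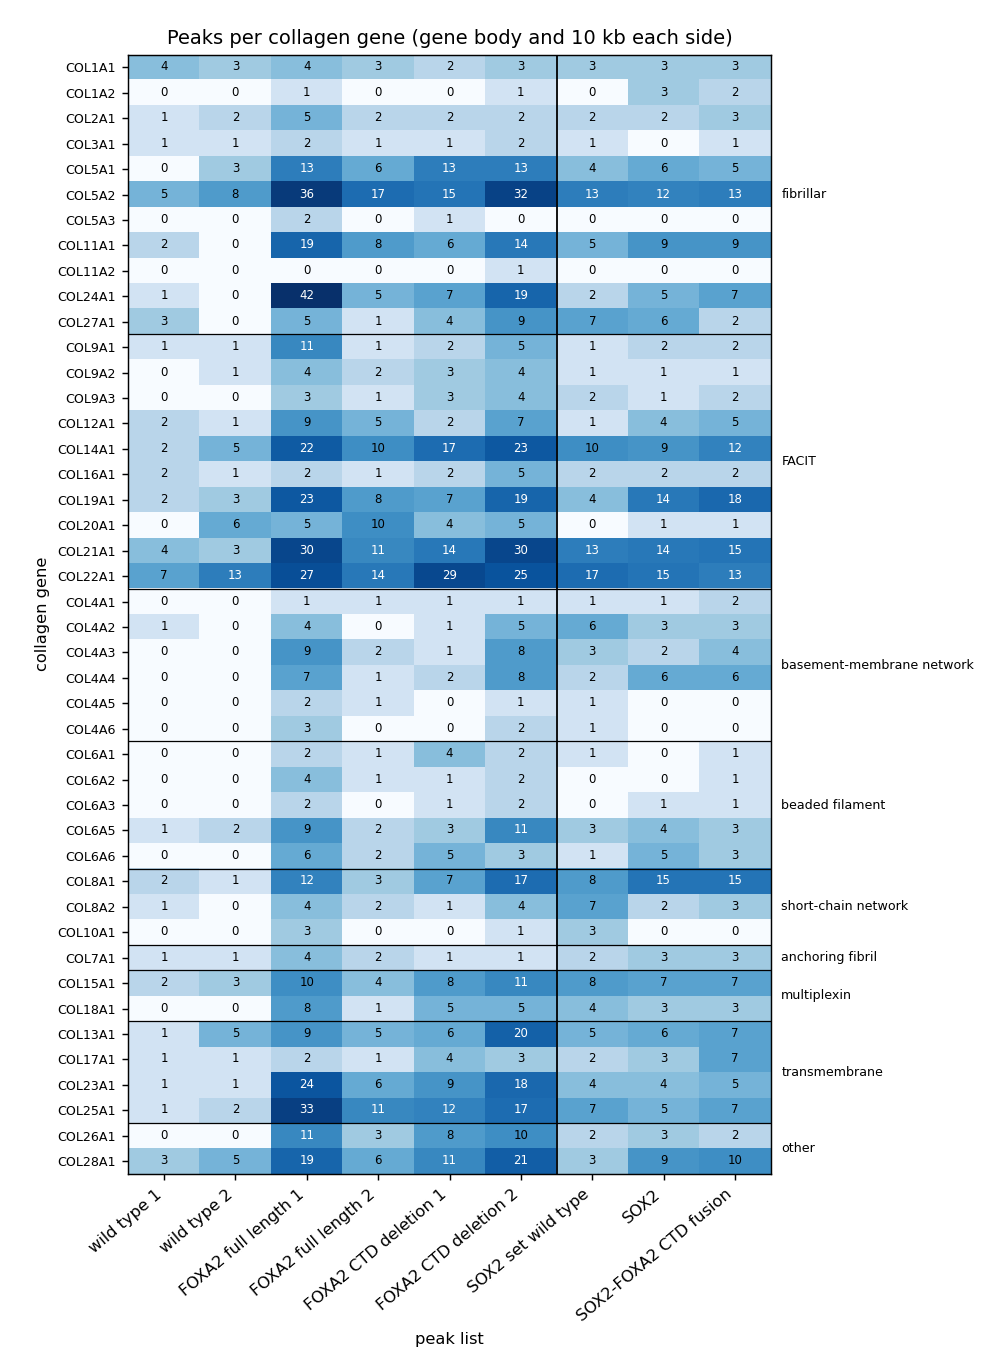
Number of peaks in the body of each collagen gene and 10 kb on each side (cell labels, colour on a log2 scale), with genes in rows grouped by family and the 9 lists in columns. COL5A2, COL14A1, COL21A1 and COL22A1 hold peaks in every list, and the type IV genes are nearly empty in the first 2 columns.

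The genes of type I collagen behaved differently from each other. COL1A1 had a peak in its window in all 9 lists, with 4 and 3 peaks in WT, 4 and 3 with FOXA2FL, 2 and 3 with FOXA2dCTD and 3 in each list of the SOX2 set. A merged region close to an end of the gene (chr17:50199768-50201123) was called in every list, though the peak of WT replicate 1 in it lay over 1 kb from that end, at deposited fold enrichments over the background of its own library of 4.81 and 6.55 (WT), 5.74 and 10.6 (FOXA2FL) and 4.35 and 5.24 (FOXA2dCTD). A region in the flank (chr17:50177999-50178985) was called in all 9 lists as well, and none of the 6 merged regions of COL1A1 was gained or lost with any construct. COL1A2 had no peak in the 3 wild-type lists, none in FOXA2FL replicate 2 or FOXA2dCTD replicate 1, and 1 in each of the other FOXA2 libraries, at different places. With SOX2FL it had 3 and with the fusion 2. The strongest of these, within the gene (chr7:94414563-94414939), had a −log10 p of 15.9 with SOX2FL and 14.9 with the fusion and no entry of any quality in WT_SOX2_CellLine. The one at the lower end of the gene (chr7:94395346-94395807) was weak, with 6.42 and 7.65, and the wild-type list held an entry there that had failed the reproducibility filter. In the lists of the SOX2 set, the −log10 p is the lower of the values of the list's 2 inputs.

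By rule, a region of the FOXA2 set was gained when it was called in both libraries of a construct and in neither WT library, and lost in the opposite case. The collagen windows held 765 of the 276021 merged regions. With FOXA2FL, 77 of them (10.1%, Wilson 95% interval 8.13% to 12.4%) were gained, against 9.06% of all regions, and with FOXA2dCTD 60 (7.84%, 6.14% to 9.97%), against 8.72%. Lost regions numbered 2 with FOXA2FL (0.261%, 0.0717% to 0.948%, all regions 0.155%) and 2 with FOXA2dCTD (the same share and interval, all regions 0.0576%). The intervals cover counting error only, since regions are not replicate cultures. They include the share of all regions for both sets of gains and for the FOXA2FL losses. The interval of the FOXA2dCTD losses lay above that share, though it rests on 2 regions. The 77 regions lay at 28 genes (46.0% of all genes had such a region) and the 60 at 25 genes (41.2%). A lost region was present at 2 genes with each construct (1.03% and 0.436%). Collagen windows are longer at the median than those of all genes, and longer windows held more regions. These gene counts are thus not on equal terms with the shares of all genes, and shares over genes of equal length were not computed. Both constructs were compared with the same wild-type libraries, and 28 regions were gained with both.

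The balance of gains over losses depended on the number of peaks taken from each list. With equal numbers of strongest peaks, 11 of 138 collagen regions were gained with FOXA2FL (all regions 7.52%) and 11 were lost (4.30%). With FOXA2dCTD 8 were gained (5.74%) and 4 lost (3.36%). When peaks below a −log10 p of 5.43 were dropped from every list, gains were fewer but still outnumbered losses. With FOXA2FL 38 regions were then gained and 3 lost, and with FOXA2dCTD 18 were gained and 2 lost. Shares of all regions were not computed for this threshold, nor for the batches and left-out libraries that follow. Within the batch with mitochondrial peaks in the files, where 1 WT list stands against 1 FOXA2FL list, 400 collagen regions were gained with FOXA2FL and 15 lost, and in the other batch 112 were gained and 20 lost. With FOXA2dCTD, both of whose lists fall in the first of these batches, 80 were gained and 8 lost against its WT list. Single libraries moved the counts too: 376 regions were gained with FOXA2FL without its replicate 2, and 320 and 158 with FOXA2dCTD without its replicates 1 and 2. Without WT replicates 1 and 2 in turn, 14 and 13 were lost with FOXA2FL and 11 and 8 with FOXA2dCTD.

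**Figure D3:**
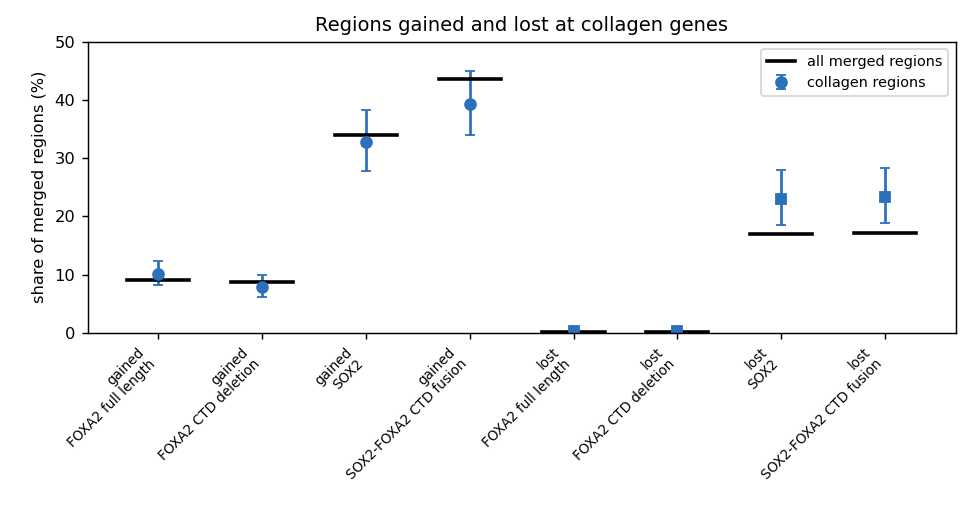
Share of merged regions (%, vertical axis) gained (circles) or lost (squares) with each construct at the collagen genes, with Wilson 95% intervals, beside the share of all merged regions (black bars). Gains lie near the bars, while the lost shares with SOX2FL, 23%, and the fusion, 23.3%, lie above bars at 17.0% and 17.1%.

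Most gained sites were inside the genes and away from any start. Of the 765 collagen regions, 645 (84.3%) were intragenic, meaning in a collagen gene body and over 1 kb from any annotated start or, for genes without one, either end. Of the regions gained with FOXA2FL 66 were intragenic, which is 10.2% of the intragenic collagen regions against 9.27% of intragenic regions of all genes. Of those gained with FOXA2dCTD 57 were, 8.84% against 9.02%. Regions at collagen starts or ends numbered 38, of which 7 were gained with FOXA2FL and 1 with FOXA2dCTD. With starts of other genes in these windows included, 9 of 52 were gained with FOXA2FL (17.3%, 9.38% to 29.7%), against 14.1% of such regions of all genes. With FOXA2dCTD 1 of the 52 was (1.92%, 0.34% to 10.1%), against 10.0%. Both intervals include the share of all genes. The difference between the constructs at these 38 regions was not tested.

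The merged regions gained at starts or ends with FOXA2FL, taken as those reaching within 1 kb, were called in FOXA2dCTD replicate 2 in 5 of 7 cases and in replicate 1 in 0. The COL6A2 region (chr21:46097648-46098441), which covers the start of this beaded-filament collagen of muscle and skin, had fold enrichments of 4.00 and 5.11 with FOXA2FL, no peak and 5.34 with FOXA2dCTD, and was called with the fusion (−log10 p 6.79) but not with SOX2FL. Around the start of COL19A1, 1 region (chr6:69865521-69865993) had 5.66 and 5.11 with FOXA2FL and no peak with FOXA2dCTD, and the other (chr6:69867148-69868021) had 3.70 and 6.48, then no peak and 5.75. The second was called in all 3 lists of the SOX2 set, wild type included. COL9A2, of the surface of cartilage fibrils, had 3.17 and 5.45 (chr1:40316708-40317089), then no peak and 2.96. The merged region of COL26A1 had 3.31 and 4.77, then no peak and 3.41. It reached within 1 kb of the start, but of the FOXA2 libraries only FOXA2dCTD replicate 2 had its own peak that near, as had all 3 lists of the SOX2 set. The others lay beside COL5A1, at 2.99 and 4.77 with no peak with FOXA2dCTD, and at the lower end of COL5A2, at 5.85 and 7.84, then no peak and 4.07. With FOXA2dCTD the single region gained at a start was that of COL27A1, a cartilage collagen (chr9:114155085-114155541), at 3.66 and 4.25. It also had a peak in FOXA2FL replicate 2, at 5.80, and in all 3 lists of the SOX2 set.

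The strongest gained regions sat in 3 long genes, COL21A1, COL22A1 and COL25A1, the last a transmembrane collagen of neurons. They were ranked by the lower of both libraries' within-list percentiles of −log10 p. A COL21A1 region (chr6:56097548-56098721), 5886 bp from the internal start shown above, ranked highest with FOXA2FL: its fold enrichment was 6.87 in replicate 1 and 38.2 in replicate 2. FOXA2dCTD had no peak there in replicate 1 and 4.32 in replicate 2, and the lists of the SOX2 set had no entry at all. No WT library had a peak. Next came a COL25A1 region (chr4:108842085-108842819) with 6.67 and 11.9 with FOXA2FL and 2.78 and 3.51 with FOXA2dCTD. A COL22A1 region (chr8:138865130-138866343) had 6.12 and 11.9, then 5.04 and 5.52, and ranked highest of those gained with FOXA2dCTD. Both lacked any entry in the SOX2 set. Fold enrichments of different lists are each relative to their own library and share no scale.

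Also high with FOXA2dCTD were a second COL21A1 region (chr6:56235070-56235759), at 6.61 and 6.44, and a second COL25A1 region (chr4:108959252-108959956), at 6.40 and 5.81. FOXA2FL had peaks at both, at 5.79 and 10.6 for the first and 3.92 and 8.18 for the second. The COL21A1 site was the sole region of these that was gained with all 4 constructs: the SOX2 set called it at a −log10 p of 25.4 with SOX2FL and 11.6 with the fusion, while the wild-type entry, with inputs at 4.07 and 4.65, failed the filter. Across all collagen regions, 6 of the 77 gained with FOXA2FL were also gained with SOX2FL and 8 with the fusion. Of the 77, 14 were already called in WT_SOX2_CellLine, and of the 60 gained with FOXA2dCTD, 18 were. The wild-type lists of both sets thus differed at a part of these sites, which had been chosen for having no peak in either WT library. The list of WT_SOX2_CellLine is also longer and its entries wider, with a median of 820 bp against 378 and 343 bp in WT. The same share over all gained regions was not computed.

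**Figure D4:**
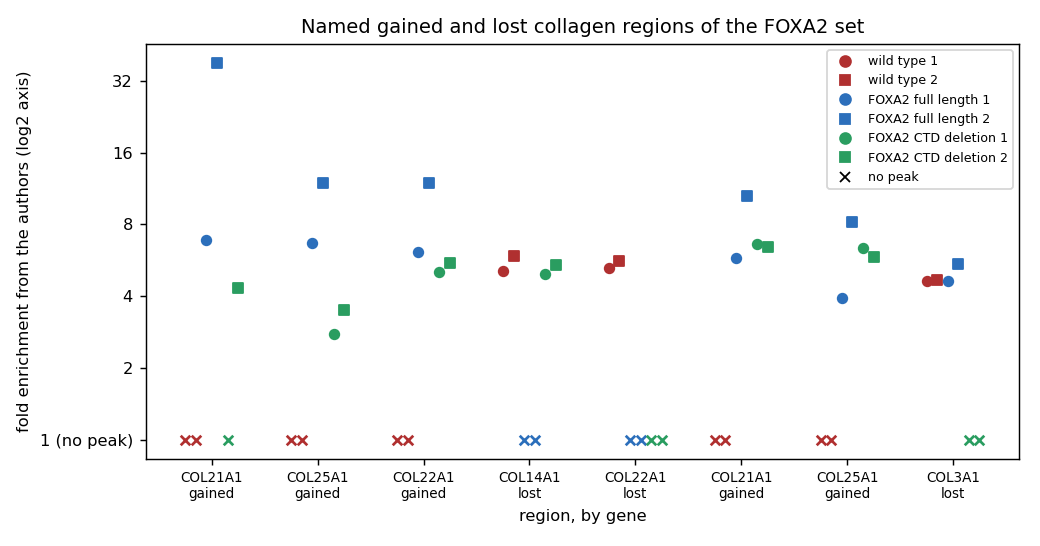
Fold enrichment from the authors (log2 vertical axis, relative to the background of each library) at the collagen regions ranked highest among those gained with a FOXA2 construct, and at all lost regions, by gene. Wild type is red, FOXA2FL blue and FOXA2dCTD green, circles are replicate 1, squares replicate 2 and crosses, drawn at 1, libraries without a peak; the first COL21A1 region has 38.2 in FOXA2FL replicate 2.

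The regions lost with the FOXA2 constructs were 3 in all, and 2 of them were lost with 1 construct and called in both libraries of the other. A COL14A1 region (chr8:120346682-120347397) had fold enrichments of 5.10 and 5.93 in WT and 4.94 and 5.41 with FOXA2dCTD and no peak with FOXA2FL. A region in COL3A1, the collagen of vessels and skin (chr2:188978285-188978769), had 4.64 and 4.68 in WT and 4.64 and 5.45 with FOXA2FL and no peak with FOXA2dCTD. The third, in COL22A1 (chr8:138740117-138740604), had 5.26 and 5.61 in WT and no peak with either construct. It was called in WT_SOX2_CellLine and with SOX2FL and was not with the fusion. These peaks were modest in height, and each loss rests on 4 libraries.

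Regions gained with 1 construct and called in neither library of the other numbered 18 for FOXA2FL (all regions 1.65%) and 11 for FOXA2dCTD (1.94%). The FOXA2FL-only regions ranked highest were in COL5A1 (chr9:134644556-134645239, at 2.99 and 8.18), COL25A1 (chr4:109113413-109113786, at 4.30 and 6.48) and COL8A2, a collagen of Descemet's membrane in the cornea (chr1:36099427-36100042, at 4.63 and 6.14). The FOXA2dCTD-only regions ranked highest were in COL5A1 (chr9:134669984-134670647, at 4.04 and 5.61), COL28A1, of peripheral nerve (chr7:7541631-7542117, at 4.55 and 3.89), and COL26A1 (chr7:101411447-101411668, at 4.31 and 3.51). The COL5A1 and COL8A2 regions of the first kind were called in WT_SOX2_CellLine. COL5A1 held regions of both kinds, 3 of the first and 2 of the second. Of the FOXA2FL-gained collagen regions, 44.2% were called in FOXA2dCTD replicate 1 and 68.8% in replicate 2 (56.5% ± 17.4, SD, n = 2 libraries), against 64.6% ± 15.2 for all FOXA2FL-gained regions. Of the FOXA2dCTD-gained collagen regions, 76.7% and 51.7% were called with FOXA2FL (64.2% ± 17.7, n = 2), against 63.5% ± 11.9 for all. List by list, FOXA2FL-gained collagen regions were called less often than all such regions, at 44.2% against 53.8% and 68.8% against 75.4%. FOXA2dCTD-gained ones were called more often in FOXA2FL replicate 1 (76.7% against 71.9%) and less often in replicate 2 (51.7% against 55.1%). The SD is a spread between 2 lists of different length and does not measure these differences, which were not tested.

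In the SOX2 set the collagen windows held 305 of 102872 merged regions, and a region was gained or lost when it was called in 1 of the construct and wild-type lists and not in the other. Each group has a single list there, so that no spread between replicates exists. With SOX2FL 100 collagen regions were gained (32.8%, Wilson 95% interval 27.8% to 38.2%), against 33.9% of all regions, and with the fusion 120 (39.3%, 34% to 44.9%), against 43.7%. Lost regions numbered 70 with SOX2FL (23%, 18.6% to 28%), against 17.0% of all regions, and 71 with the fusion (23.3%, 18.9% to 28.3%), against 17.1%. The lost shares lay above those of all regions beyond counting error, and both use the same wild-type list. The gains lay at 29 genes with SOX2FL (all genes 45.7%) and 33 with the fusion (48.2%), and the losses at 33 (34.4%) and 29 (37.7%). Here too the longer windows of collagen genes raise such counts, and shares over genes of equal length were not computed.

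With the same number of strongest entries in each list the lost shares at collagens again lay above those of all regions, with 84 lost of 249 with SOX2FL (33.7%, 28.1% to 39.8%, all regions 27.4%) and 95 with the fusion (38.2%, 32.3% to 44.3%, all regions 31.1%). The gains were then 60 with SOX2FL (all regions 27.5%) and 73 with the fusion (31.1%), so that collagen losses outnumbered gains. Over all regions, lists of equal length give nearly equal gains and losses by construction, so that their balance is no result. Many lost regions still had an entry that failed the filter: 35 of the 70 with SOX2FL and 51 of the 71 with the fusion. Counting as lost only regions with no entry of any quality left 35 with SOX2FL (11.5%, 8.37% to 15.5%, all regions 5.80%) and 20 with the fusion (6.56%, 4.28% to 9.91%, all regions 4.28%), where the lower bound of the interval and the share of all regions round to the same value. Under that rule 55 regions were gained with SOX2FL (interval 14.1% to 22.7%, all regions 21.2%). With the fusion 73 were gained (23.9%, 19.5% to 29.03%, all regions 31.4%). The fusion gains at collagens thus lay below the share of all regions beyond counting error, while the SOX2FL interval included that share. Under the main rule the interval of the fusion gains had included the share of all regions. The collagen share, 39.3%, was then near the 39.0% of regions in all protein-coding gene windows. The share in those windows was not computed for regions with no entry of any quality. Of the 250 intragenic collagen regions, 23.6% (18.76% to 29.24%) were lost with each construct, against 18.7% and 18% of all intragenic regions. The lower bound lay only just above the share of all intragenic regions with SOX2FL. Intragenic gains were 34.4% (28.8% to 40.5%) with SOX2FL, against 36.4%. With the fusion they were 42% (36.05% to 48.19%), against 48.82%, a share just above that interval. WT_SOX2_CellLine was also the list with the largest share of its peaks in collagen windows, 0.330%, against 0.288% with SOX2FL and 0.274% with the fusion.

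The lost regions were spread over many collagens, with 7 at COL5A2, 6 each at COL21A1, COL22A1 and COL25A1 with SOX2FL, and 8, 7, 8 and 5 with the fusion. The highest in the wild-type list among those lost with SOX2FL was in COL28A1 (chr7:7492187-7493019), at a −log10 p of 28.9 in wild type, no entry with SOX2FL and 6.68 with the fusion. It was called in all 6 libraries of the FOXA2 set. A region in the flank of COL9A1 (chr6:70311892-70312796) had 27.2 in wild type and 11.6 with the fusion and failed the filter with SOX2FL, with inputs at 6.42 and 6.14. A region in COL5A2 (chr2:189096396-189097544) had 26.2 in wild type, no entry with SOX2FL and 7.01 with the fusion, and was called in all 6 FOXA2 libraries. All 3 of these kept a weaker call with the fusion.

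The regions lost with the fusion that ranked highest were all in COL22A1. The first lies at an end of the gene (chr8:138913788-138914859), with 30.1 in wild type and 31.4 with SOX2FL. In the fusion list its inputs had −log10 p values of 2.93 and 29.3, so that 1 input held a strong peak and the other almost none. This call rests on 1 input, and the region was called in all 6 libraries of the FOXA2 set. The second (chr8:138739906-138740981) had 28.8 and 9.20 and fusion inputs at 7.22 and 4.39, and overlaps the region lost with both FOXA2 constructs. The third (chr8:138672504-138673599) had 26.7 and 12.1 and fusion inputs at 7.28 and 5.37.

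Of the regions gained in the SOX2 set, those of COL28A1 stood highest. A COL28A1 region (chr7:7488209-7489128) had a −log10 p of 27.6 with SOX2FL and 18 with the fusion and no entry in wild type. A second (chr7:7516023-7517061) had 22.9 with SOX2FL and 32.5 with the fusion, the highest of the fusion gains, and no entry in wild type. It had no peak in any library of the FOXA2 set. The first of these regions lies within 4 kb of the lost COL28A1 region, so that this gene held a gained and a lost site side by side. COL8A1 had a region (chr3:99677758-99678814) at 26.6 with SOX2FL and 23.9 with the fusion, with a failed wild-type entry at 5.08 and 6.52. COL12A1, whose start was open in all lists, gained an intragenic region (chr6:75148918-75149640) at 19.7 with SOX2FL and 26.0 with the fusion, with no entry in wild type and no peak in the FOXA2 set. Of the 100 and 120 gained regions, 45 and 47 had a failed entry in wild type.

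Regions gained with SOX2FL and not called with the fusion numbered 27 (all regions 9.72%), and regions gained with the fusion and not called with SOX2FL 47 (19.5%). All 3 highest of the first kind, in COL22A1 (−log10 p 14.9), COL6A5 (11.1) and COL26A1 (10.3), had entries in the fusion list that failed the filter. The same was true of the 3 highest fusion-only regions, in COL21A1 (chr6:56181048-56181878, 17.6), COL24A1 (chr1:86069758-86070474, 17.2) and COL22A1 (12.1), which had failed entries with SOX2FL. Of the regions gained with SOX2FL, 73.0% (63.6% to 80.7%) were called with the fusion, against 71.3% of all such regions, and of those gained with the fusion 60.8% (51.9% to 69.1%) were called with SOX2FL, against 55.4%. Both intervals include the share of all regions.

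The map of COL21A1, a gene with 3 annotated starts over 302.466 kb, shows these patterns together. Its internal start had a peak in every list, at fold enrichments of 7.73 and 7.17 in WT, 9.21 and 7.5 with FOXA2FL and 5.81 and 5.60 with FOXA2dCTD. Its −log10 p in the SOX2 set was 23.8 in wild type, 9.72 with SOX2FL and 11.4 with the fusion. The gene had 4 and 3 peaks in WT, 30 and 11 with FOXA2FL, 14 and 30 with FOXA2dCTD, and 13, 14 and 15 in the SOX2 set. Gained regions numbered 6 with FOXA2FL, 4 with FOXA2dCTD, 7 with SOX2FL and 9 with the fusion, and 6 and 7 were lost with the SOX2 constructs.

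**Figure D5:**
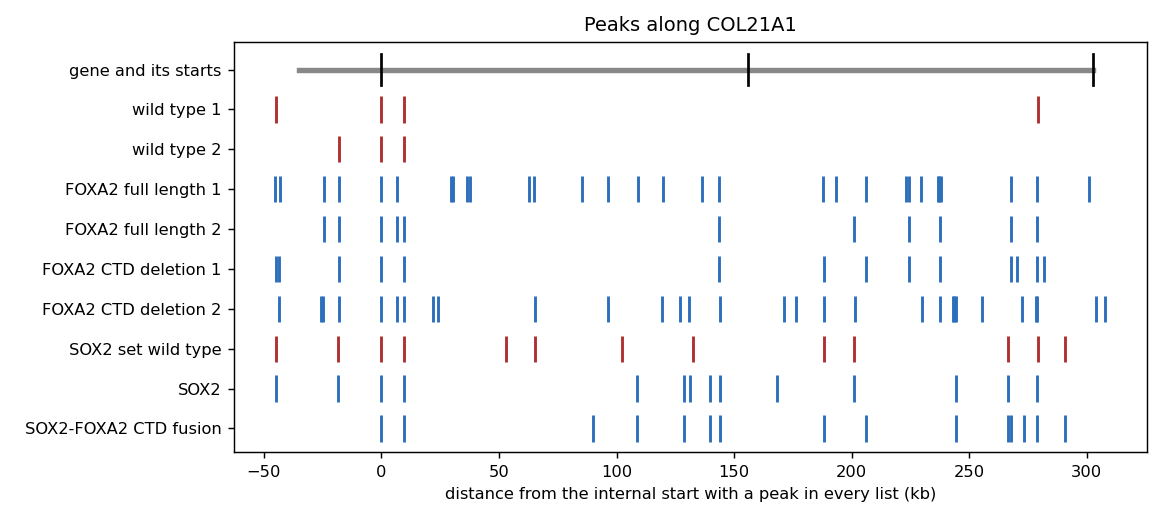
Peaks along COL21A1 (ticks at peak centres) by distance in kb from the internal start, with 1 row per list, wild types in red and constructs in blue; the grey bar is the gene and the black ticks its 3 starts. The internal start at 0 carries a tick in all 9 rows, and most other ticks appear in the construct rows and the SOX2 set.

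Fibrillar, fibril-associated and transmembrane collagens held most of the collagen regions of the FOXA2 set, and their gained shares lay near those of all regions. Of the 11 fibrillar genes, 7 and 5 had a peak in WT, 10 and 8 with FOXA2FL, 9 and 10 with FOXA2dCTD and 8, 8 and 9 in the SOX2 set. Their 203 regions included 21 gained with FOXA2FL (10.3%, all regions 9.06%) and 18 with FOXA2dCTD (8.87%, all regions 8.72%). COL5A2 alone gave 9 and 6 of these. The 10 FACIT genes held 242 regions, 28 of them gained with FOXA2FL (11.6%) and 15 with FOXA2dCTD (6.2%). In the SOX2 set 32 of their 98 regions were gained with SOX2FL (32.7%, all regions 33.9%) and 41 with the fusion (41.8%, all regions 43.7%). COL19A1 gave 11 and 15 of these, more than any other collagen. The 4 transmembrane genes had a peak in all lists and 107 regions, with 13 gained with FOXA2FL (12.1%) and 11 with FOXA2dCTD (10.3%).

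Basement-membrane collagens had few peaks in the wild type of the FOXA2 set. Of the 6 type IV genes, 1 (COL4A2) had a peak in WT replicate 1 and 0 in replicate 2, where 55.9% and 52.7% of all genes had one. The counts were 6 and 4 with FOXA2FL, 4 and 6 with FOXA2dCTD and 6, 4 and 4 in the SOX2 set. With equal numbers of strongest peaks this contrast was not seen: 1 and 0 genes had a peak in WT, 0 and 1 with FOXA2FL, 2 and 2 with FOXA2dCTD and 2, 0 and 0 in the SOX2 set. COL4A1 and COL4A2, the chains found in nearly all basement membranes, share the promoter gap shown above. A peak covered it in the 3 lists of the SOX2 set alone, at a −log10 p of 9.67 in wild type, 7.10 with SOX2FL and 5.67 with the fusion, so that it does not follow the constructs. The gap between COL4A3 and COL4A4, of the kidney filter, was called with SOX2FL (15) and the fusion (6.68) and failed the filter in wild type, with inputs at 2.39 and 12.4. It also had a peak in FOXA2FL replicate 1 and FOXA2dCTD replicate 2. A region over the starts of COL4A5 and COL4A6 was called in wild type (8.43) and failed the filter with both SOX2 constructs.

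Among the remaining families, the 5 type VI genes had a peak at 1 gene in each WT library (COL6A5 in both), at 5 and 4 with FOXA2FL (all genes 93.5% and 78.1%) and at 5 and 5 with FOXA2dCTD (81.0% and 92.4%). With equal numbers of strongest peaks they had one at 1 and 1 gene in WT, 1 and 1 with FOXA2FL and 1 and 3 with FOXA2dCTD. In the SOX2 set, 8 of the 16 type VI regions were gained with SOX2FL (50%, all regions 33.9%) and 7 with the fusion (43.8%, all regions 43.7%). With each construct 3 were lost (18.8%, all regions 17.0% and 17.1%). The lost ones included a region at the start of COL6A6 (9.84) and a weak one beyond an end of COL6A1 (6.17), called in wild type alone of the lists of this set. COL8A2 and COL10A1, of hypertrophic cartilage, had losses and no gains there: 4 and 3 regions were lost with SOX2FL and 3 and 3 with the fusion. COL15A1 and COL18A1, which release anti-angiogenic fragments, held 31 regions, of which 2 were gained with FOXA2FL and 4 with FOXA2dCTD. COL7A1, of the anchoring fibrils of skin, had none gained of its 5 with either. A peak at an annotated start of COL18A1 was present in FOXA2dCTD replicate 2 and all 3 lists of the SOX2 set.

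The genes that make collagen had a peak more often than collagens in every list but that of the fusion. Of 29 genes for collagen hydroxylation, folding, cleavage and cross-linking, 23 and 20 had a peak in WT, 29 and 27 with FOXA2FL, 28 and 29 with FOXA2dCTD and 29, 28 and 25 in the SOX2 set. For collagens the fusion list gave 39 of 44. The shares of all genes with a peak, given above, ran from 52.7% to 93.5%. At least 1 region was gained at 21 of them with FOXA2FL (all genes 46.0%), 21 with FOXA2dCTD (41.2%), 16 with SOX2FL (45.7%) and 16 with the fusion (48.2%). The lysyl oxidase LOX, which cross-links collagen, held the single region lost with FOXA2FL at these genes. Regions were lost at 18 with SOX2FL (all genes 34.4%) and 21 with the fusion (37.7%). Of 7 receptor genes, 6 had a peak in each library of the FOXA2 set, and the exception, DDR1, had a peak with SOX2FL and in no other list. The integrin gene ITGB1, whose product is part of the collagen-binding integrins, had no peak in WT_SOX2_CellLine and 3 and 2 with the SOX2 constructs.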

How the data were processed

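ATAC-seq had been done on U2OS cells and the authors deposited peak lists, 1 per library in the FOXA2 set and 1 per group in the SOX2 set. The submitters' processing notes name FastQC 0.10.1, Trim Galore, Bowtie2 2.4.4, SAMtools 0.1.18, MACS2, deepTools 2.4.1 and build hg38, without roles. The deposited fold enrichment (a ratio), −log10 p, −log10 q and score of each peak are the authors' values per list; the deposited summit was used for an alternative. The lists of the SOX2 set have the layout of the IDR (irreproducible discovery rate) procedure, with the deposited score restating the IDR; that its inputs were both samples is an assumption. Entries with a global IDR of at most 0.05 on chromosomes 1–22 and X were used. Peaks of a set were merged, and a region was called in a list when a peak overlapped it by at least 1 bp. Read depth is unknown, and filters, duplicates and peak thresholds are not given in the sources used here, so that list length limits every count. Regions were named by rank of −log10 p within a list, and genes by number of regions, calls at starts and family. Gene windows and starts came from RefSeq, where 32 of the 44 collagen genes had a promoter entry; for COL1A1, COL1A2, COL2A1, COL3A1, COL5A2, COL6A1, COL6A5, COL8A1, COL9A3, COL14A1, COL20A1 and COL22A1 both gene ends served in place of a start. The members, lists and rules were chosen with earlier results of these data known. Alternatives changed list length, thresholds, overlap, summit windows, gene window, IDR, batch and libraries. Calls were made in Python 3.11.15 (numpy 2.4.6, pandas 2.3.3, scipy 1.17.1) and tested on simulated data. If the replicate samples are not separate cultures, their spread may be technical.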

Additional observations from a re-analysis of the deposited data

How the results depend on the processing

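Of 202 values recomputed under an alternative, 145 stayed within 1.5 times the reported count or, for shares, within 1 SD or the 95% interval, and 57 moved further. With equal numbers of strongest peaks, gained regions fell to 11 (FOXA2FL) and 8 (FOXA2dCTD) and lost ones rose to 11 and 4, construct-only regions were 6 and 3, shares called with the other construct 31.8% and 43.8%, and collagen genes called 20 and 17. At a common −log10 p of at least 5.43, 38 and 18 regions were gained and 3 were FOXA2dCTD-only. With peaks covering at least 50% of a region, FOXA2dCTD gained 36 and lost 1, and 10 genes were called in WT. Within the batch with mitochondrial peaks, FOXA2FL gained 400 and lost 15, FOXA2dCTD lost 8, 256 regions were FOXA2FL-only and the share of FOXA2FL gains called with FOXA2dCTD was 26%; in the other batch FOXA2FL lost 20. Leaving out each library in turn gave 77 to 376 regions gained and 2 to 14 lost with FOXA2FL, 59 to 320 gained and 2 to 11 lost with FOXA2dCTD, 18 to 253 FOXA2FL-only and 12 to 202 FOXA2dCTD-only, shares of 22.3% to 68.8% and 26.7% to 76.3%, and 19 to 25, 34 to 43 and 32 to 43 genes called in WT, FOXA2FL and FOXA2dCTD. The highest gains came without FOXA2FL replicate 2 and without FOXA2dCTD replicate 1, the highest losses without WT replicate 1. FOXA2dCTD gains were 158 without its replicate 2.

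In the SOX2 set, equal numbers of entries gave 60 and 73 gains (SOX2FL, fusion) and 31 fusion-only regions. All entries whatever their IDR gave 178 and 228 gains, 131 losses with SOX2FL, and 48 SOX2FL-only and 98 fusion-only regions. At an IDR of at most 0.01, 36 and 46 regions were lost. Requiring no entry at any IDR left 55 and 73 gains, 35 and 20 losses, and 0 and 7 construct-only regions, so that no SOX2FL-only region was free of a fusion or wild-type entry. Gene bodies alone, in both sets, and summit windows, run in the FOXA2 set, moved no value past these limits; with gene bodies alone 71 regions were gained with FOXA2FL and 15 genes called in WT. The cause was not tested. No paired analysis was possible because no result comes from a test and pairing the libraries by number gives the same calls by construction.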
